A study of Mus musculus with 6 samples.

Results

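The genes described here are the core of the machinery that controls the G1 phase of the cell cycle. They are the D-type cyclins Ccnd1, Ccnd2 and Ccnd3, the E-type cyclin Ccne1, the kinases Cdk4 and Cdk6, and the inhibitors Cdkn1b, Cdkn1c, Cdkn2c and Cdkn2d. They were selected by gene symbol from the deposited table of gene expression after Ybx1 knockdown. This selection did not use their values, but the genes were chosen with earlier results of these data known. All 10 of the 10 genes were found among the 17920 genes listed, and all 10 were among the 13669 genes with enough counts to be tested. Their transcripts took between 0.0617% and 0.0838% of the estimated counts of a library.

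In G1, a cell either commits to DNA replication or leaves the cycle. D-type cyclins bind and activate Cdk4 and Cdk6, which phosphorylate the retinoblastoma protein and release E2F transcription factors, and cyclin E with Cdk2 then completes the step into S phase. Inhibitors of the INK4 family, here Cdkn2c (p18) and Cdkn2d (p19), bind Cdk4 and Cdk6, whereas the Cip/Kip inhibitors Cdkn1b (p27) and Cdkn1c (p57) act on cyclin-CDK complexes more broadly. In the developing cortex, G1 of neural progenitors is known to lengthen as neurogenesis proceeds, Ccnd2 is enriched in progenitors, and Cdkn1b and Cdkn1c are linked to the exit of newborn neurons from the cycle.

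RNA was taken from cells of the mouse cortex at E13.5 (the embryonic day). Per the methods of the study, these cells were grown in culture, received an shRNA (a short hairpin that triggers loss of its matching mRNA) by lentivirus and were selected with puromycin, which kills cells without the virus. The hairpin was directed at Ybx1 in the KD group (3 libraries) and was a control in the WT group (3 libraries). Ybx1 encodes an RNA-binding protein that reads 5-methylcytosine in mRNA. The labels give genotype WT or KD and tissue brain, the series text speaks of a deletion, and neither states the strain or which hairpin was used. The series text calls the replicates biological and names several sequencing batches without saying which library belongs to which.

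Library totals lay between 16294635 and 16497505 estimated counts. Ybx1 itself was at 618, 615 and 653 CPM (counts per 1000000 of a library, after scaling between libraries) in WT replicates 1, 2 and 3 and at 98.3, 92.2 and 159 CPM in KD replicates 1, 2 and 3. It was therefore at 18.5% of the WT mean (adjusted P = 1.8e-04, edgeR), with the highest remaining level in KD replicate 3. Markers of radial glia (the neural stem cells of the cortex) summed to between 3111 and 3847 TPM (a unit that divides by transcript length and is scaled to the same sum in each library) in all libraries, and neuron markers to between 6226 and 7306 TPM. Defining markers of microglia and endothelium were near 0, with at most 6.16 TPM in any library for the sum of 8 microglial genes and at most 1.67 TPM for the sum of 7 endothelial genes. Ventral GABAergic markers, which belong to cells born outside the cortex, summed to between 462 and 773 TPM. Both replicate 2 libraries stood apart in 4 Y-linked genes, whose summed level was 0.864 CPM (WT) and 2.2 CPM (KD) against 73.9 to 115 CPM in the other 4 libraries. The calls of the 10 genes and of the pathway lists are therefore also given without this pair where they changed.

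After Ybx1 KD, 4 of the 10 genes were higher (Ccnd2, Cdk4, Cdk6 and Cdkn1b), 2 were lower (Cdkn1c and Cdkn2d) and 4 did not pass the threshold (Ccnd1, Ccnd3, Ccne1 and Cdkn2c). The change was about 2-fold for Cdk6 and below 1.4-fold for the other 5 genes. Among all genes tested, 12% were called higher (1646 genes) and 11.9% were called lower (1631 genes) at an adjusted P of 0.05 in the edgeR quasi-likelihood test. The same 6 genes had no overlap between the KD and the WT libraries, 4 with KD above WT and 2 with KD below WT. KD libraries lay wholly above WT in 21% of the genes tested and wholly below in 20.6%. The median log2 fold change was 0.06 over the 10 genes and -0.0013 over all genes. The balance of calls over all genes depended on the scaling, with 50.2% of calls higher here, 43.0% under upper quartile scaling, 57.9% under total count scaling and 65.9% when TPM was tested with limma. The calls of the 10 genes were the same under each of these. In bulk RNA, fewer cells that express a gene and less RNA per cell cannot be told apart.

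**Figure D1:**
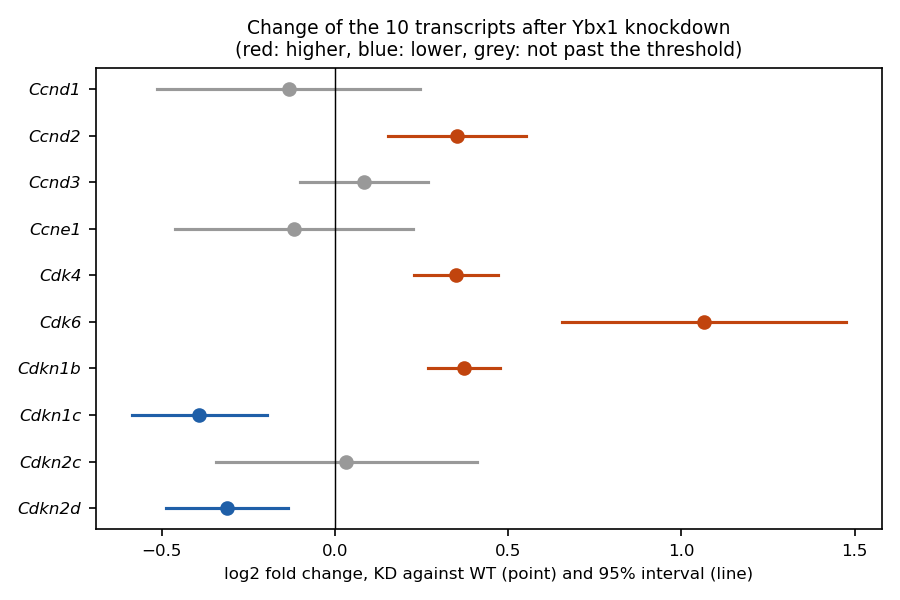
The log2 fold change of KD against WT (x axis) is plotted for the 10 genes (y axis) as a point with its 95% interval as a line, red where higher, blue where lower and grey where the threshold was not passed. Cdk6 stands farthest from 0 at 1.06, and the intervals of Ccnd1, Ccnd3, Ccne1 and Cdkn2c include 0.

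Before the comparison, the levels per length were ranked within the family. In WT libraries, Cdk4 was the most abundant of the 10 transcripts at 365 ± 17.4 TPM (mean ± SD, n = 3 libraries). Cdkn1b (89.3 ± 2.56 TPM), Cdkn2d (78.3 ± 6.65 TPM) and Ccnd2 (57.5 ± 6.99 TPM) followed, and the libraries of each of these were separate from those of its neighbours above. Ccnd3, at 52.7 ± 5.30 TPM, overlapped with Ccnd2. Cdkn1c was at 27.0 ± 1.72 TPM, below Ccnd3 and above the rest. Ccnd1 (16.6 ± 3.53 TPM), Cdkn2c (16.5 ± 1.52 TPM) and Ccne1 (13.8 ± 2.87 TPM) overlapped with each other and were not ordered beyond their spread. Cdk6 was the least abundant, at 3.67 ± 0.568 TPM. In KD libraries the order of Ccnd2 and Cdkn2d was exchanged, with Ccnd2 at 76.3 ± 7.11 TPM and Cdkn2d at 65.6 ± 2.53 TPM and no overlap between them.

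The D-type cyclins are the regulatory partners of Cdk4 and Cdk6. Ccnd2 (Entrez Gene 12444, chr6:127125162-127152193, minus strand, GRCm38) was at 145, 161 and 181 CPM in WT replicates 1, 2 and 3 and at 228, 195 and 199 CPM in the KD replicates. All KD libraries lay above all WT libraries, KD replicate 1 farthest. The log2 fold change was 0.35 (SE 0.09, 95% interval 0.15 to 0.55, adjusted P = 0.0211, edgeR), and the KD mean was 128% of WT. This call was lost without WT replicate 1 (edgeR adjusted P = 0.0505), without WT replicate 2 (0.0745), without KD replicate 1 (0.0584) or without both replicate 2 libraries (0.142, with a log2 fold change of 0.39), while the direction was kept. The study lists Ccnd2 among targets that fell in its Ybx1-loss data, this knockdown included. By quantitative PCR it also reports a fall in cultured cells given siRNA (a short RNA delivered without virus) and in conditional knockout cortex. It further reports faster decay of Ccnd2 mRNA in cultured knockout cells. Here Ccnd2 was higher, and the cause of this difference was not tested.

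Ccnd1 (Entrez Gene 12443, chr7:144929931-144939925, minus strand) was at 36.4, 25.1 and 26.2 CPM in WT and at 32.7, 23.1 and 24.1 CPM in KD. Replicate 1 was the highest library in both groups, and the groups overlapped. Against WT, KD was at -0.13 on the log2 scale (SE 0.17, 95% interval -0.51 to 0.25, adjusted P = 0.600, edgeR). This interval, from a fit that does not pair the libraries, allows a KD level between 0.701 and 1.19 times WT. Within same-numbered pairs the log2 differences were -0.16, -0.12 and -0.12 in replicates 1, 2 and 3. With replicate number as a block in edgeR, Ccnd1 still did not pass (log2 fold change -0.13, adjusted P = 0.134).

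Ccnd3 (Entrez Gene 12445, chr17:47505051-47599691, plus strand) was at 39.8, 49.1 and 45.0 CPM in WT and at 44.5, 48.8 and 48.7 CPM in KD. The KD values lay within the range of the WT values. Ccnd3 thus had a log2 fold change of 0.08 (SE 0.08, 95% interval -0.10 to 0.27, adjusted P = 0.492, edgeR). Of the D-type cyclins, then, Ccnd2 alone passed the test, although a difference between the fold changes of the 3 genes was not tested.

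Ccne1 (Entrez Gene 12447, chr7:38097984-38107534, minus strand) encodes cyclin E1, the partner of Cdk2. It was at 14.1, 11.4 and 9.15 CPM in WT and at 11.0, 10.4 and 10.5 CPM in KD. The WT values spread on both sides of the KD values. Against WT, KD was at -0.12 on the log2 scale (SE 0.15, 95% interval -0.46 to 0.22, adjusted P = 0.605, edgeR), and within same-numbered pairs it ran from -0.36 in replicate 1 to 0.20 in replicate 3.

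**Figure D2:**
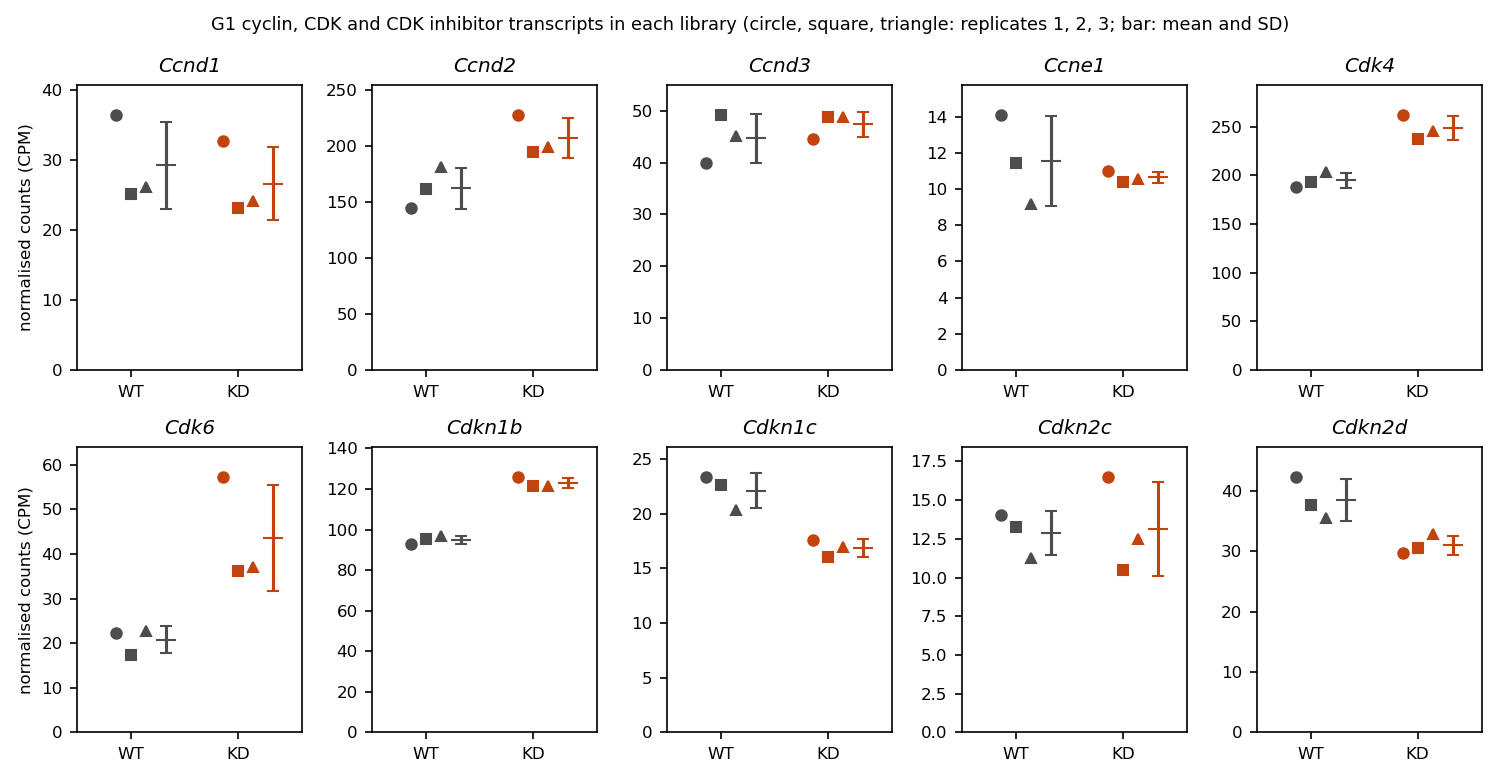
Normalised counts (CPM, y axis from 0) of each of the 10 genes are plotted for the WT (grey) and KD (red) libraries, with circle, square and triangle for replicates 1, 2 and 3 and a bar for the mean and SD. Ccnd2, Cdk4, Cdk6 and Cdkn1b have every KD library above every WT library, Cdkn1c and Cdkn2d have every KD library below, and the other 4 genes overlap.

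Both G1 kinases were higher in KD. Cdk6 (Entrez Gene 12571, chr5:3341485-3531008, plus strand) was at 22.3, 17.3 and 22.8 CPM in WT and at 57.2, 36.2 and 37.2 CPM in KD. The lowest KD library was above the highest WT library, and KD replicate 1 was well above the other KD libraries. The fold change was 2.09 (95% interval 1.57 to 2.78, log2 1.06 with SE 0.18, adjusted P = 0.00452, edgeR). Without KD replicate 1 the log2 fold change was 0.82, the smallest value under any alternative, and the call was kept.

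Cdk4 (Entrez Gene 12567, chr10:127063534-127067920, plus strand) was at 188, 193 and 204 CPM in WT and at 262, 238 and 246 CPM in KD. The groups were separated by more than the spread within either. Cdk4 rose by 0.35 on the log2 scale (SE 0.05, 95% interval 0.23 to 0.47, adjusted P = 0.00292, edgeR), and the KD mean was 127% of WT. Because Cdk4 was far more abundant, the summed TPM of the 2 kinases was almost wholly Cdk4 and moved from 368 ± 17.6 TPM in WT to 484 ± 25.0 TPM in KD. Cdk6 made up 0.996 ± 0.144% of that sum in WT and 1.63 ± 0.371% in KD, without overlap (exact permutation test, 3 against 3 libraries, two-sided P = 0.10, the smallest value this unpaired test allows). This difference of 0.629 percentage points was 0.415 without KD replicate 1, and 5.13 when shares were taken from estimated counts, which are not divided by transcript length. The calls of Cdk4 and Cdk6 were lost when both replicate 2 libraries were left out (edgeR adjusted P = 0.0641 and 0.0566), with log2 fold changes of 0.37 and 1.07.

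For both kinases, the 250 bases before the RefSeq start site (GRCm38.p6) were searched for letters of known promoter elements. The palindrome CACGTG, the core E-box that bHLH factors such as Myc recognise, occurred 4 times before Cdk4 and 1 time before Cdk6. It was present at least 1 time in 8.14% of the 14017 such windows of tested genes, and at least 4 times in 3 of them. The parts of both windows that hold it and lie outside annotated exons follow, with CACGTG in capitals, from chr10:127063285-127063533 and chr5:3343643-3343731, both on the plus strand.
Cdk4: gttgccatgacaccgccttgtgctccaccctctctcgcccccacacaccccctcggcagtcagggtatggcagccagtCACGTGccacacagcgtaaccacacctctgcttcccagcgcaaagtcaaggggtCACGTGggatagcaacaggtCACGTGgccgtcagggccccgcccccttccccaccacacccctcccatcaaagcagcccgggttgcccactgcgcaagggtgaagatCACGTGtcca
Cdk6: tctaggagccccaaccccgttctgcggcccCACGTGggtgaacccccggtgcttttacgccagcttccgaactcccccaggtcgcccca
In the Cdk4 window the copies began 172, 118, 98 and 11 bases before the RefSeq start. In the Cdk6 window the copy began 220 bases before its RefSeq start. The gene positions given here follow GENCODE M21, and the Cdk6 window lies inside that gene, with 57 bases in annotated exons. Of the other elements searched, the Cdk4 window held 1 GC box (GGGCGG, on the opposite strand) and the Cdk6 window held 1 TATA box (TATAAA). A match is a run of letters and not a measured binding site, and a link to the changes in KD was not tested.

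Of the Cip/Kip inhibitors, Cdkn1b rose and Cdkn1c fell. Cdkn1b (Entrez Gene 12576, chr6:134920401-134925513, plus strand) was at 92.7, 95.3 and 96.6 CPM in WT and at 126, 121 and 122 CPM in KD. The spread within each group was small beside the distance between them. Cdkn1b rose by 0.37 on the log2 scale (SE 0.05, 95% interval 0.27 to 0.48, adjusted P = 0.0012, edgeR), with the KD mean at 130% of WT. Without both replicate 2 libraries the log2 fold change was 0.39 and the edgeR adjusted P was 0.0540.

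Cdkn1c (Entrez Gene 12577, chr7:143458339-143461050, minus strand), an imprinted gene, was at 23.3, 22.7 and 20.3 CPM in WT and at 17.6, 16.0 and 16.9 CPM in KD. All KD libraries lay below all WT libraries. Its log2 fold change was -0.39 (SE 0.09, 95% interval -0.59 to -0.20, adjusted P = 0.0131, edgeR), with the KD mean at 76.2% of WT. The call was lost without WT replicate 2 (edgeR adjusted P = 0.0542), without KD replicate 2 (0.0557) or without both (0.165, log2 fold change -0.34).

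Of the INK4 inhibitors, Cdkn2d fell and Cdkn2c did not pass the test. Cdkn2d (Entrez Gene 12581, chr9:21288410-21291407, minus strand) was at 42.2, 37.7 and 35.5 CPM in WT and at 29.8, 30.5 and 32.8 CPM in KD. The highest KD library was below the lowest WT library, with the smallest gap between the replicate 3 libraries. Its log2 fold change was -0.31 (SE 0.08, 95% interval -0.49 to -0.13, adjusted P = 0.0214, edgeR), with the KD mean at 80.6% of WT. It was the least stable of the 6 calls, since the edgeR adjusted P was 0.0618 without WT replicate 1, 0.0616 without WT replicate 2, 0.0655 without KD replicate 1, 0.0795 without KD replicate 2 and 0.179 without both replicate 2 libraries (log2 fold change -0.31).

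Cdkn2c (Entrez Gene 12580, chr4:109660876-109667189, minus strand) was at 14.0, 13.3 and 11.3 CPM in WT and at 16.5, 10.5 and 12.5 CPM in KD. The KD values spread on both sides of the WT values. The log2 fold change was 0.03 (SE 0.17, 95% interval -0.34 to 0.41, adjusted P = 0.906, edgeR), an interval that allows a KD level between 0.789 and 1.33 times WT.

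Ybx1 was named for the Y-box, a promoter element with an inverted CCAAT (its letters here are CTGATTGG), so the inhibitors' windows were searched for CCAAT on either strand and for CTGATTGG on either strand. The Cdkn1b window held CCAAT 2 times, beginning 161 and 35 bases before the RefSeq start. The Cdkn2d window held it 1 time, on the opposite strand and within CTGATTGG, 220 bases before the RefSeq start. Of the 250 bases in the Cdkn2d window, 198 lie in annotated exons, and this copy lies nearer to the GENCODE M21 start. CCAAT was present in 35.4% and CTGATTGG in 5.44% of the windows of tested genes, so the first is common. Neither element was found in the windows of Cdkn2c. A window of Ccnd3, which did not pass the test, also held CCAAT, beginning 108 bases before the RefSeq start. Cdkn1b and Cdkn2d moved in opposite directions in KD. The stretches outside annotated exons follow, read along the strand of the gene with CCAAT or its complement ATTGG in capitals, from chr6:134920151-134920400 (plus strand) and chr9:21291408-21291459 (minus strand).
Cdkn1b: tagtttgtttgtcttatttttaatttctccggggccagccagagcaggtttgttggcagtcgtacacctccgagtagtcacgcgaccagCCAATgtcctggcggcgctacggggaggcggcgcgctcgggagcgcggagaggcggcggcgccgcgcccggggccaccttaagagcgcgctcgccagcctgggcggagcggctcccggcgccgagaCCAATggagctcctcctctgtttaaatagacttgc
Cdkn2d: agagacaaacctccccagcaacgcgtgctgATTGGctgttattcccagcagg
Windows were found for 7 of the 10 genes (9 windows) and not for Ccnd1, Ccnd2 and Cdkn1c. None of the 9 windows held an E2F site as TTTCCCGC, TTTGGCGC, TTTGCCGC or TTTCGCGC on either strand, letters that were present in 3.20% of the windows of tested genes.

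Members of the same family compete for the same partners, so their shares of the summed TPM were compared per library. Ccnd2 made up 45.3 ± 2.86% of the 3 D-type cyclin transcripts in WT and 50.7 ± 1.97% in KD, a difference of 5.44 percentage points without overlap (exact permutation test, P = 0.10). Ccnd1 was at 13.2 ± 3.61% in WT and 10.4 ± 1.53% in KD (exact P = 0.30), and Ccnd3 was at 41.5 ± 2.90% and 38.9 ± 3.50% (exact P = 0.60). Both of these shares overlapped between the groups.

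Among the 4 inhibitors the make-up was shifted towards Cdkn1b. Its share was 42.4 ± 2.56% in WT and 53.4 ± 1.05% in KD, a difference of 11.0 percentage points without overlap (exact P = 0.10). The share of Cdkn2d was lower by 7.85 percentage points, from 37.1 ± 1.83% in WT to 29.2 ± 1.72% in KD, also without overlap (exact P = 0.10). Cdkn1c was at 12.8 ± 0.498% in WT and 9.51 ± 0.175% in KD (exact P = 0.10), and Cdkn2c was at 7.82 ± 0.484% and 7.89 ± 1.59% (exact P = 1). None of these exact tests could reach 0.05 with 3 libraries per group, and over the 10 ratios compared the smallest Benjamini-Hochberg adjusted value was 0.167, so no ratio passed the threshold.

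**Figure D3:**
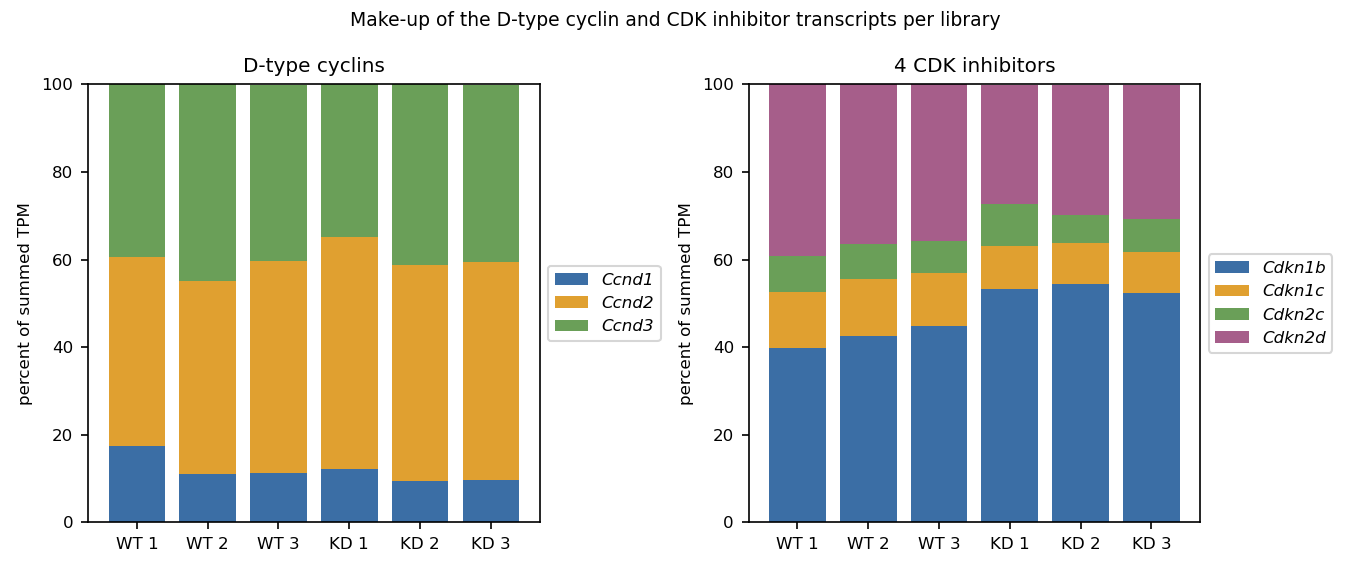
The stacked bars give the share of the summed TPM (y axis, percent) taken by each D-type cyclin (left) and each of the 4 CDK inhibitors (right) in the 6 libraries (x axis). The Ccnd2 share is above 49% in all KD libraries and below 49% in all WT libraries, and the Cdkn1b share is above 52% in all KD libraries and below 45% in all WT libraries.

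The summed inhibitors differed less than their make-up, with 211 ± 7.37 TPM in WT and 225 ± 6.10 TPM in KD. Within this sum, the Cip/Kip pair was at 116 ± 0.840 TPM in WT and 141 ± 4.31 TPM in KD, and the INK4 pair was at 94.8 ± 8.08 TPM and 83.4 ± 3.35 TPM. The log2 ratio of INK4 to Cip/Kip transcripts was -0.30 ± 0.13 in WT and -0.76 ± 0.06 in KD, without overlap (exact P = 0.10). The summed D-type cyclins were at 127 ± 7.70 TPM in WT and 150 ± 8.09 TPM in KD. The log2 ratio of D-type cyclins to the 4 inhibitors was -0.74 ± 0.14 in WT and -0.58 ± 0.04 in KD, and here the groups overlapped (exact P = 0.20).

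Same-numbered WT and KD libraries deviated together over all genes, so the 6 genes that passed were also followed within pairs. All 6 kept their direction in all 3 pairs. Cdk6 was higher by 1.36, 1.06 and 0.70 on the log2 scale in replicates 1, 2 and 3, and Ccnd2 by 0.65, 0.27 and 0.14. Cdk4 was higher by 0.48, 0.30 and 0.27 and Cdkn1b by 0.44, 0.35 and 0.33. The log2 differences of Cdkn1c were -0.40, -0.50 and -0.26, and those of Cdkn2d were -0.51, -0.31 and -0.11. Replicate 3 thus had the smallest difference for all 6 genes, and the log2 difference of Ybx1 itself was also smallest there (-2.65, -2.74 and -2.04). Over all 3277 genes called, replicate 3 had the smallest difference in 58.9%, replicate 1 in 19.2% and replicate 2 in 21.9%, so this order was not particular to the family.

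**Figure D4:**
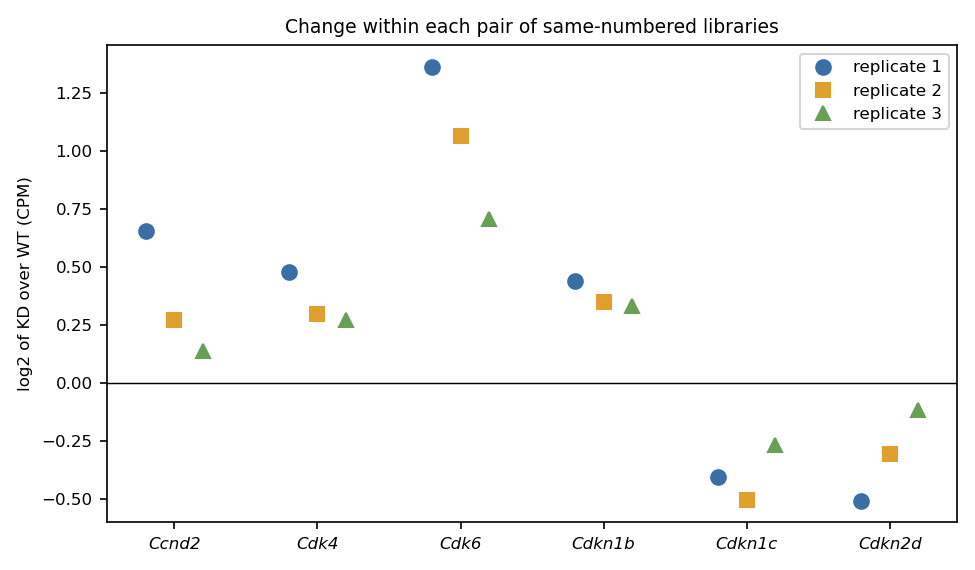
The log2 ratio of KD to WT within each pair of same-numbered libraries (y axis) is plotted for the 6 genes that passed the test (x axis), with circle, square and triangle for replicates 1, 2 and 3. All points of Ccnd2, Cdk4, Cdk6 and Cdkn1b are above 0 and all points of Cdkn1c and Cdkn2d are below 0, and the triangle of replicate 3 is the nearest to 0 for each gene.

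How firmly each count can be assigned differed within the family. Ccnd1 and Ccnd3 had fractional estimated counts in all 6 libraries, for example 600.24 and 656.01 in WT replicate 1, whereas the other 8 genes had whole counts in all 6. In the GENCODE M21 annotation (GRCm38), 21.6% of the 50-base words in Ccnd1 transcripts were shared with the neighbouring gene LTO1, which overlaps 1100 exonic bases on the opposite strand. For Ccnd3 the share was 5.39%, mostly with Bysl, which overlaps 361 exonic bases on the opposite strand. LTO1 and Bysl also had fractional counts in all libraries and did not pass the test, with log2 fold changes of 0.14 (adjusted P = 0.285) and -0.13 (adjusted P = 0.171, edgeR). Cdk4 shared 17.0% of its words, with Tspan31 overlapping 641 exonic bases on the opposite strand, but both had whole counts. Tspan31 did not pass, at -0.12 on the log2 scale (adjusted P = 0.247, edgeR). Cdkn1c shared 24.9% of its words with the antisense transcript Gm44732, over 625 exonic bases, which was not analysed here. Smaller shares of Ccnd2 (6.31%) and Cdk6 (3.32%) were found in other genes' transcripts, mostly of antisense transcripts that overlap 372 and 368 exonic bases of Ccnd2 and 368 of Cdk6. Ccne1, Cdkn1b, Cdkn2c and Cdkn2d shared no such word with another gene. Since the strand setting of the counting is not stated in the sources used here, reads of Ccnd1, Ccnd2, Ccnd3, Cdk4, Cdk6 and Cdkn1c cannot be told apart from those of their antisense partners over these bases.

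The remaining CDK inhibitors were examined next. Cdkn1a (p21, an inhibitor induced by p53) was at 91.4 ± 7.44 CPM (WT) against 50.3 ± 5.86 CPM (KD), which is -0.86 on the log2 scale (adjusted P = 6.9e-04, edgeR). Cdkn2a, Cdkn2b and Cdkn3 did not pass the test, and the list of 4 had a median log2 fold change of 0.08. Of the inhibitors named, then, Cdkn1a had the largest change in size, and 1 of 3 Cip/Kip genes was higher and 2 were lower.

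Among 10 genes of cyclin E/A, Cdk2 and CDK activation, 3 were higher and none lower, with a median of 0.22. Ccna2 (cyclin A2, with fractional counts) rose by 0.57 on the log2 scale, Cdk2 by 0.51 and the CDK-activating phosphatase gene Cdc25a by 0.31 (adjusted P = 0.0150, 0.0158 and 0.0453, edgeR). Of 13 Rb family and E2F genes, 5 were higher and 2 lower, with a median of 0.12. The largest rises were those of E2f2 (0.64), Rbl1 (0.46) and Tfdp2 (0.35), and the falls were those of Tfdp1 (-0.31), a dimer partner of E2F factors, and E2f3 (-0.21). The pocket protein genes Rb1 and Rbl2, whose products restrain E2F, were the other 2 that rose. Without both replicate 2 libraries, 0 genes of either list were called by edgeR (at an unadjusted P under 0.05, 4 and 6 were higher and 0 and 1 lower). With 1 library left out, 1 to 2 genes of the first list and 2 to 4 of the second were higher, fewest in both when it was WT replicate 2.

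Of 15 genes for the turnover and assembly of these proteins, 4 were higher and 6 lower, with a median of -0.05. Uhmk1, a kinase that phosphorylates p27, fell by 0.78 on the log2 scale (adjusted P = 3.1e-04, edgeR). Skp1, a core subunit of SCF ubiquitin ligases, fell by 0.72 on the log2 scale (adjusted P = 1.7e-04, edgeR), with fractional counts in all libraries. Its partner Rbx1 fell by 0.26, whereas Cul1, a further SCF subunit, rose by 0.21 (adjusted P = 0.0119, edgeR). The ligase genes Fbxw7 (0.36, with fractional counts), whose product targets cyclin E, Cul4b (0.35) and Cul4a (0.22) rose. Skp2, the F-box protein that targets p27, did not pass the test at a log2 fold change of 0.04. Without both replicate 2 libraries, 0 genes of this list were called higher and 2 lower by edgeR (4 and 5 at an unadjusted P under 0.05), and with KD replicate 2 alone left out 1 was higher and 5 lower.

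**Figure D5:**
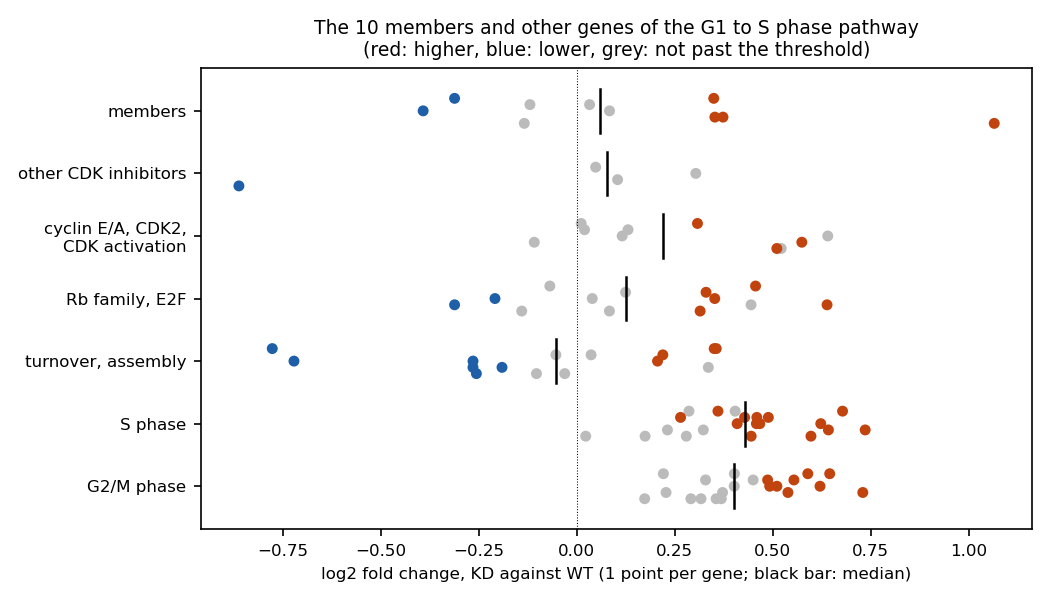
Each point is the log2 fold change of KD against WT (x axis) of 1 gene, by list (y axis), red where higher, blue where lower and grey where the threshold was not passed, with a black bar for the median. The 10 genes of the G1 core spread on both sides of 0, whereas all points of the S phase and G2/M lists are above 0.

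Genes of the later phases were counted beside the same share over all genes, of which 12% were called higher. Of 21 S phase genes, 14 were higher and none lower (median log2 fold change 0.43), and 7 did not pass, with Cdc6 (0.74) and Mcm6 (0.64) among those that rose. This count was 1 without both replicate 2 libraries (14 at an unadjusted P under 0.05), 5 with WT replicate 2 left out, 8 with either WT replicate 3 or KD replicate 1 left out, 3 at an adjusted P under 0.01 and 18 with the replicate block, all in edgeR. Of 21 G2/M genes, 9 were higher and none lower (median 0.40) and 12 did not pass, with Hmmr (0.73), Mki67 (0.65) and Top2a (0.62) among those that rose. Here the count was 0 without both replicate 2 libraries (11 at an unadjusted P under 0.05), 1 with WT replicate 2 left out, 3 with either WT replicate 3 or KD replicate 1 left out, 4 with KD replicate 2 left out, 1 at an adjusted P under 0.01 and 18 with the replicate block, again in edgeR. The S phase genes summed to between 607 and 647 TPM in WT and to between 792 and 938 TPM in KD. Among KD libraries, replicate 1 was the highest, as it was for Ccnd2, Cdk4, Cdk6 and Cdkn1b. Among WT libraries, replicate 1 was again the highest in the S phase sum. It was however the lowest for Ccnd2, Cdk4 and Cdkn1b and lay between the others for Cdk6. The list of intermediate progenitors (cells between radial glia and neurons) had 6 of 8 genes tested higher and a median of 1.08, and a summed level between 190 and 221 TPM in WT and between 284 and 326 TPM in KD. Of the 11 radial glia genes, 2 were higher (median 0.23), and of the 12 neuron genes, 2 were higher and 2 lower (median 0.05). Differences between these lists were not tested. Olig1 and Cspg4 of the oligodendrocyte lineage were lower (2 of 7 genes), Dlx2 was the 1 of 7 ventral GABAergic genes that was higher, Pdgfrb was the 1 of 4 mural and meningeal genes tested that was higher, and none of the 4 astrocyte genes or the 1 erythroid gene tested passed. The part of cell type make-up or of cycling cells in the changes of Cdk6, Ccnd2, Cdk4, Cdkn1b, Cdkn1c and Cdkn2d was not tested.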

How the data were processed

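RNA-seq of 6 libraries (3 WT, 3 KD) was analysed, with groups and replicate numbers from the sample titles. The columns call the controls Ctrl, and each was matched to the WT title of the same number. The submitters' processing notes name HISAT2 2.2.1, Bowtie2 2.4.5 and RSEM 1.3.1 and the builds GRCm38 and mm10, without their roles, and the libraries were made with an mRNA kit and sequenced on DNBSEQ. The estimated counts per gene were deposited with 2 decimals, and between 89.3% and 89.9% of them were whole in a library. The authors also deposited TPM, FPKM and group averages, and the last 2 were not used here.

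The estimated counts were rounded, and KD was compared with WT by edgeR 4.0.16 (R 4.3.3, TMM scaling, filterByExpr with a minimum count of 10, quasi-likelihood F-test, no block, Benjamini-Hochberg adjustment over 13669 genes, threshold 0.05). Whole counts had been assumed when this test was chosen. SE was derived from the fold change and its F statistic (size of the log2 change over the root of F). CPM used TMM-scaled library sizes. Shares and ratios used TPM, with an exact two-sided permutation test over libraries that did not use their pairing (smallest P = 0.10). The test was checked on simulated counts. These had the same relative spread for every gene and no pairing of libraries, so the check does not extend to the pairing seen here. Replicates of a group differed by 4.43 to 8.66 in chi-square per degree of freedom, so none agreed within sampling noise. The biological coefficient of variation estimated by edgeR, a value common to all genes tested, was 7.7%. P values weigh the difference between groups against the spread between these libraries only, with edgeR sharing information on that spread across genes.

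Deviations from the group means correlated over genes at 0.35, 0.32 and 0.18 for same-numbered WT and KD libraries and at -0.28 to -0.02 for others, so the numbers pair the libraries, and a replicate block was run as an alternative. Other alternatives were RLE, upper quartile and total count scaling, 2 other filters, DESeq2 1.42.0, limma-voom and limma-trend (limma 3.58.1, the latter on log2(TPM + 1)), a stricter threshold, leaving out each library and leaving out both replicate 2 libraries. Shared words were counted over GENCODE M21 transcripts. Promoter windows came from RefSeq (GRCm38.p6), and E2F, E-box, CCAAT, Y-box, GC box and TATA letters were searched. Skp1 was matched through its gene number.

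All 10 genes were named with their values, and from each pathway list at most the 3 largest and 3 smallest changes among genes called, with Ybx1, Cdkn1a and Mki67. The values of 1 gene that this rule names are not reported here. LTO1, Bysl and Tspan31 were named for their overlap. Rb1, Rbl2, Skp2, Cul1, Olig1, Cspg4, Dlx2 and Pdgfrb were named after their values were seen. Genes called in the radial glia, intermediate progenitor and neuron lists were counted but not named. The members and lists were chosen with earlier results of these data known.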

Additional observations from a re-analysis of the deposited data

How the results depend on the processing

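The 4 genes called higher and the 2 called lower were the same under other scalings and filters, DESeq2, limma and the replicate block. With the replicate block, 2539 genes were higher and 2470 lower over all genes (against 1646 and 1631), all earlier calls were kept, and no member changed its call. Without both replicate 2 libraries, 0 members were called in either direction by edgeR (at an unadjusted P under 0.05, 4 were higher and 2 lower), and 135 genes were higher and 93 lower. With 1 library left out, between 3 and 4 members were higher and 0 to 2 lower (4 and 2 at an unadjusted P under 0.05 in every such edgeR fit), and 779 to 1612 genes were higher and 797 to 1583 lower. At an adjusted P under 0.01, 3 members were higher (Ccnd2 was lost) and 0 lower, with 629 and 634 genes. With limma-trend on TPM, 1072 genes were lower. Of the members that did not pass, the log2 fold change turned sign with 1 library left out for Ccnd1 (-0.31 to 0.06, the latter 0.0564 without WT replicate 1), Ccne1 (-0.26 to 0.05, 0.0487 without WT replicate 1) and Cdkn2c (-0.16 to 0.17), never past the threshold. Taken from estimated counts instead of TPM, the KD minus WT difference was 5.13 percentage points for the Cdk6 share (against 0.629), -3.96 for Cdkn1c (against -3.25) and -5.96 for Cdkn2d (against -7.85). Estimated counts are not divided by transcript length, and fewer libraries were used in some of these settings. Beyond this, the cause of these differences was not tested. Depth limits Ccne1 and Cdkn2c most, at 147 to 274 estimated counts per library.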
